A study of Homo sapiens with 12 samples.

Results

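CCRF-CEM is a human T lymphoblast leukemia line, and the comparison here set cells labelled as SLFN11 gene knockout against the wild-type parent line before any drug. It used the 3 SLFN11KO_control and the 3 Parent_control libraries, which are 6 of the 12 in the series, all treated with DMSO, the solvent of the drug. The other 6 libraries, 3 of each genotype, came from cells given 100 nM camptothecin for 4 h, and they served as a second reading of the genotype difference in separate libraries. Cells of all groups grew in RPMI1640 medium with serum, and RNA was sequenced as paired ends. The labels do not say how the gene was knocked out, whether the knockout line is 1 clone, or whether replicates were separate cultures, and the p-values therefore reflect the spread of these libraries alone, some or all of which may be technical. With 1 knockout line, a difference between the lines may come from the lost gene or from how the 2 lines were derived and grown, and these cannot be told apart.

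SLFN11 belongs to the schlafen family and is a putative DNA and RNA helicase that is recruited to stressed replication forks, where it blocks replication, and it sensitizes cancer cells to drugs such as camptothecin, which traps topoisomerase I on DNA. CCRF-CEM cells carry the markers of an immature, cortical thymocyte: they express terminal transferase, CD1 molecules and the genes for V(D)J recombination, and growth of many such leukemias depends on Notch signalling. The title of the series concerns chromatin remodeling and activation of immediate early genes by SLFN11 under replication stress. The untreated comparison shows which RNAs already differ between the lines before stress.

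Exon reads numbered 42493441 to 63677395 per library in 11 libraries and 135760458 in parent control replicate 1. The latter library also stood apart from its group in composition: a chi-square comparison of its counts with the other untreated parent libraries gave 209.99 and 167.43 per degree of freedom, whereas the remaining pairs of same-group libraries gave 5.06 to 19.22. Mitochondrially encoded genes took 0.665% of its exon reads and 0.798% of those of knockout control replicate 3, against 0.413% to 0.481% elsewhere. Main counts are therefore also given without that parent library. All 15 T lymphoblast markers were above 1 CPM (exon reads scaled to the TMM-adjusted library total) in untreated cells, with a summed level of 1703 to 1872 CPM in the parent and 1977 to 1999 CPM in the knockout. Among markers of other lineages, 12 of 13 myeloid, 8 of 9 NK, 12 of 13 erythroid and megakaryocyte, 6 of 7 epithelial and all 9 fibroblast and endothelial genes were below 1 CPM, as were 7 of 11 B-lineage genes.

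Of 22821 autosomal and mitochondrial genes tested, 3593 (15.7%) were called at an adjusted p below 0.05 in edgeR's quasi-likelihood test. In the knockout 1884 (8.26%) were higher and 1709 (7.49%) were lower. Differences of at least 2-fold were seen for 632 higher (2.77%) and 308 lower genes (1.35%). The median log2 difference over all genes tested was -0.01. Per-library levels of the 2 groups did not overlap for 3553 of the 3593 called genes, against 32.4% of all tested genes. Scaling by library size alone, without TMM, moved the split from 52.4% to 72.9% higher calls (2775 higher, 1032 lower), so the balance of directions depends on the scaling. Without parent control replicate 1 there were 2244 higher and 1926 lower calls. Among the 10026 genes that averaged 10 CPM or more, 8.92% were called higher and 11.3% lower, which is the background for lists of abundant genes.

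**Figure D1:**
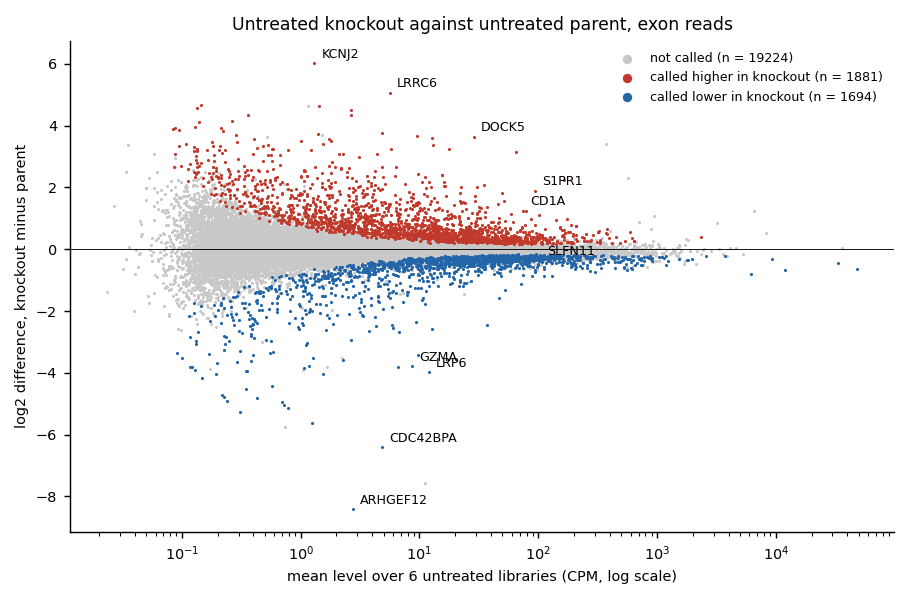
Log2 difference between untreated knockout and parent cells (vertical axis) against the mean level in CPM over the 6 untreated libraries (horizontal log axis), 1 point per gene, for the genes with reads in both groups; red and blue points are called higher and lower. KCNJ2 and LRRC6 lie at the upper edge and ARHGEF12 and CDC42BPA at the lower edge, while SLFN11 lies near 0 with a log2 difference of -0.37.

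The 15 largest falls, taken among called genes that averaged at least 1 CPM and whose groups did not overlap, included RNAs that were all but absent from the knockout. PNMAL1, a member of the paraneoplastic Ma antigen family (hg19 chr19:46969747-46974819), stood at 2.3, 2.4 and 2.33 CPM in parent replicates 1, 2 and 3 and at 0 reads in each knockout library. With a floor of 3 reads over the 3 knockout libraries its level was at least 113-fold lower. ARHGEF12, an exchange factor that activates RhoA (chr11:120207786-120360644), gave 1129 exon reads in the parent libraries and 2 in the knockout, a depth-scaled ratio of 391.5 (exact 95% counting interval 108 to 3237). CDC42BPA, a kinase that acts downstream of CDC42 (chr1:227177565-227506174), measured 10.7, 9.1 and 8.82 CPM in the parent libraries and 0.12, 0.0811 and 0.129 CPM in the knockout libraries. The log2 difference was -6.42 ± 0.26 (SE, edgeR adjusted p = 3.37e-11). At the other end, KCNJ2, which encodes an inward rectifier potassium channel (chr17:68164813-68176188), measured 0.0525, 0.0393 and 0 CPM in the parent and 2.26, 2.72 and 2.73 CPM in the knockout, a difference on the log2 scale of 6.03 ± 0.52 (SE, edgeR adjusted p = 2.76e-07).

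The stretch before the start of transcription is shown for 6 of these genes, so that the sequence at the start of the most strongly changed RNAs can be seen. They are the first 3 falls and the first 3 rises, by size, that have a single promoter in RefSeq's table. Each line gives the 250 bases before the start, 5′ to 3′ on the gene's strand, from RefSeq (GRCh38.p14, a later build than the hg19 of the counts), with CG dinucleotides in capitals. PNMAL1 is listed there as PNMA8A.
PNMAL1: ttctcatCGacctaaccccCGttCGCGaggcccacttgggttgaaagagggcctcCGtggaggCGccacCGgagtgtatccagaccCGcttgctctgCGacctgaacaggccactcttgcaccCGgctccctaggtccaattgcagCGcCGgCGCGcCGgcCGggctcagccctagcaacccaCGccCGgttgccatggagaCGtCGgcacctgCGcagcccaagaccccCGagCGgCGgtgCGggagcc
CDC42BPA: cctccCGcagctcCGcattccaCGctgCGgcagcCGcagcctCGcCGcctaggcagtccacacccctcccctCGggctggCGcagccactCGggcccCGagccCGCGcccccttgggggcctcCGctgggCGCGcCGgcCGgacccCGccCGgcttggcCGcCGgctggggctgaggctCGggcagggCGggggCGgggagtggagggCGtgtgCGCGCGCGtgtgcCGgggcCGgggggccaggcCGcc
ZNF626: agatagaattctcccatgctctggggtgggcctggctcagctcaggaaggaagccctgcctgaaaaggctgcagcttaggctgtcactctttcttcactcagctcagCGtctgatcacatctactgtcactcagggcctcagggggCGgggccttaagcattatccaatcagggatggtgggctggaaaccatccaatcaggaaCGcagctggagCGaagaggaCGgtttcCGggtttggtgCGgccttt
KCNJ2: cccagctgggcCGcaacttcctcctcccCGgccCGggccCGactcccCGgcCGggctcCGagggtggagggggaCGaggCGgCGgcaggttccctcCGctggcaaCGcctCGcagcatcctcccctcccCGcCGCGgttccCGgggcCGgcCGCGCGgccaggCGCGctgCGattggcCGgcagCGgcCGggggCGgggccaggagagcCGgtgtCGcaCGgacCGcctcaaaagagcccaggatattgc
RHOB: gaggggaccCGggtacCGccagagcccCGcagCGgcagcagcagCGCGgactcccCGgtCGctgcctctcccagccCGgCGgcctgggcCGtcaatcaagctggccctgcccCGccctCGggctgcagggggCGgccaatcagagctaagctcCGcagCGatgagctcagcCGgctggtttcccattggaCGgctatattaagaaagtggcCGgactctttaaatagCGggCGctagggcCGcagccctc
B3GAT1: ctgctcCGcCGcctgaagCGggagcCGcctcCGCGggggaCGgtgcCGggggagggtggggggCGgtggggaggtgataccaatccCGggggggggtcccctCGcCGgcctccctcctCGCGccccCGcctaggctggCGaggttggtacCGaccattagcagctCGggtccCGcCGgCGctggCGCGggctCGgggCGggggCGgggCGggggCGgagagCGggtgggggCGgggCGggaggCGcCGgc

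The motif searched was the dinucleotide CG, which reads the same on both strands. The median window of the 35116 promoters in the table holds 11. The PNMAL1 window is chr19:46471564-46471813 (minus strand, 25 CG; 21.6% of all windows hold as many or more). That of CDC42BPA is chr1:227318493-227318742 (minus strand, 33 CG; 8.15% of all windows hold as many or more). ZNF626 has chr19:20661572-20661821 (minus strand, 7 CG; 58.9% of all windows hold as many or more), the fewest of the 6. Of the rises, KCNJ2 has chr17:70169282-70169531 (plus strand, 32 CG; 9.52% of all windows hold as many or more), RHOB has chr2:20446824-20447073 (plus strand, 22 CG; 28% of all windows hold as many or more) and B3GAT1 has chr11:134412243-134412492 (minus strand, 33 CG; 8.15% of all windows hold as many or more). Over the 8 largest falls with 1 listed promoter the count ran from 1 (GZMA) to 33, with a median of 12.5, and over the 4 largest rises with 1 listed promoter from 22 to 34, with a median of 32.5. Genes with several listed promoters or no matched entry were left out, and 21 of 31 genes looked up were matched. The medians therefore do not compare all large falls with all large rises. These counts describe the windows only, since methylation was not measured.

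The other large falls spanned unrelated functions. LRP6, a co-receptor for Wnt ligands, measured 26.1, 22.2 and 19.5 CPM in the parent libraries and 0.88, 1.74 and 1.66 CPM in the knockout libraries, with a difference on the log2 scale of -3.99 ± 0.18 (SE, edgeR adjusted p = 3.08e-10). GZMA, which encodes the cytotoxic granule protease granzyme A, went from 16.4, 15.6 and 16.6 CPM to 0.76, 0.953 and 1.81 CPM, a difference of -3.79 ± 0.20 (adjusted p = 7.82e-10). GRB10, an adaptor that binds the insulin receptor, was at 15.5, 18.8 and 19.4 CPM in the parent and 1.94, 1.38 and 1.66 CPM in the knockout. The lowest parent library was 11.2, 8.61 and 8.01 times the highest knockout library for LRP6, GZMA and GRB10. MEF2C, a transcription factor that is overexpressed in a class of immature T cell leukemia, measured 3.75, 2.93 and 2.08 CPM in the parent, where its replicates spread most widely of these genes, and 0.26, 0.122 and 0.15 CPM in the knockout (-4.03 ± 0.37 (SE, edgeR adjusted p = 5.73e-07)). HIST1H1A, a replication-dependent linker histone gene, measured 2.07, 2.05 and 1.91 CPM against 0.08, 0.223 and 0.107 CPM. The zinc finger genes ZNF626 and ZNF471, both on chromosome 19, fell by 5.62 and 3.09 on the log2 scale. Others of the 15 were LRRC2, CDHR1, FLJ27365 and TMEM26, with log2 differences from -3.83 to -3.02.

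The 15 largest rises were mostly genes near the limit of detection in the parent. LRRC6, a gene needed for the assembly of ciliary dynein arms, was at 0.403, 0.275 and 0.222 CPM in the parent libraries and 10.1, 11.6 and 11.1 CPM in the knockout libraries, a difference on the log2 scale of 5.07 ± 0.18 (SE, edgeR adjusted p = 1.04e-11). DOCK5, an exchange factor for the GTPase RAC, was the most strongly counted of the 15, with 4.24 ± 0.446 CPM in the parent and 53.1 ± 1.45 CPM in the knockout (SD, n = 3 libraries each), a difference on the log2 scale of 3.64 ± 0.14 (SE, edgeR adjusted p = 7.04e-11). Its lowest knockout library was 11.4 times its highest parent library. KLF3, a Krüppel-like transcriptional repressor, measured 0.21, 0.236 and 0.222 CPM in the parent and 5.44, 5.01 and 4.75 CPM in the knockout. RHOB, which encodes a small GTPase and belongs to the immediate early genes, measured 0.263, 0.0787 and 0.399 CPM and 5.62, 4.7 and 4.79 CPM. NPTX2, a neuronal pentraxin, rose from 1.92, 2.36 and 2.68 CPM to 21.7, 24.9 and 23.9 CPM. GFOD1 and STON2, an endocytic adaptor, rose by 3.60 and 3.68, with intron differences of 3.14 and 3.37 on the same scale. Further rises were SHISA9, an auxiliary protein of AMPA receptors, TP53I11, KREMEN1, a receptor for the Wnt antagonist Dickkopf, B3GAT1, which makes the CD57 epitope, and ATP6V0A4, a subunit of the vacuolar proton pump, with log2 differences of 4.63, 3.77, 3.74, 3.52 and 3.51. CKMT1A and CKMT1B encode the same mitochondrial creatine kinase from near-identical copies on chromosome 15, so their separate differences of 3.56 and 3.40 are uncertain. All 30 of these genes stayed called with each of the 6 libraries left out in turn.

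**Figure D2:**
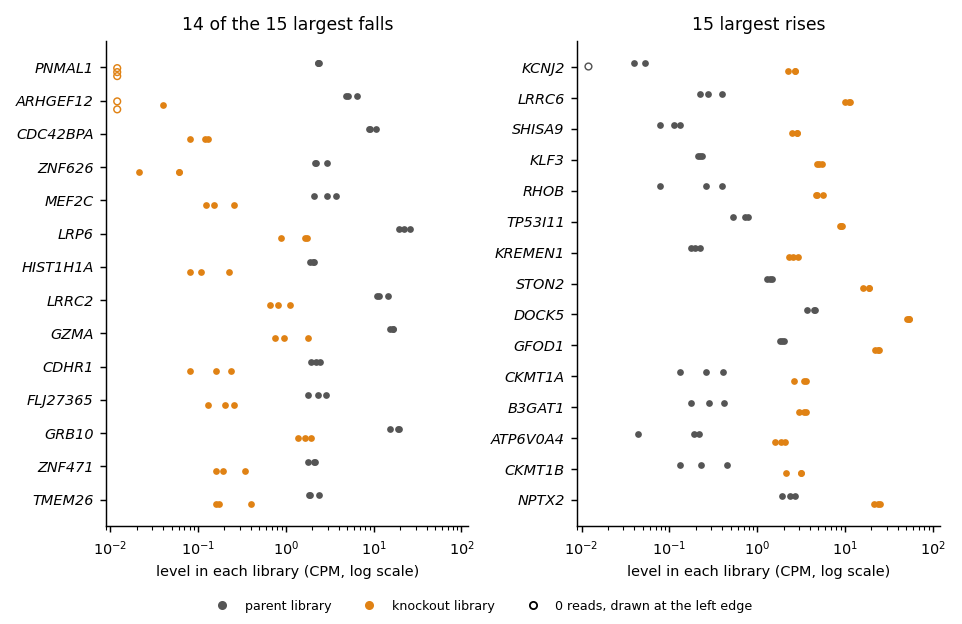
Level in CPM (log axis) of each untreated parent library (grey) and knockout library (orange) for 14 of the 15 largest falls (left) and the 15 largest rises (right); open circles at the left edge are libraries with 0 reads. The groups do not overlap for any of these genes, since that was a condition for naming them.

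The targeted gene was still transcribed. SLFN11 (chr17:33677323-33700719) measured 121, 111 and 115 CPM in the parent libraries and 91.3, 88.6 and 88.4 CPM in the knockout libraries, a fall of 0.37 on the log2 scale (0.000138 as edgeR adjusted p). Counts summed over a gene do not read a small insertion or deletion, so they do not check the knockout label. Its reads per library were 13796, 5621 and 5210 over exons and 3210, 1669 and 1477 over introns in the parent, and 4564, 4370 and 4112 over exons and 2322, 2387 and 2128 over introns in the knockout. Exon reads per intron read were thus 4.3, 3.37 and 3.53 in the parent and 1.97, 1.83 and 1.93 in the knockout, without overlap. With reads counted over the whole gene the SLFN11 difference was not called.

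Of the 5 schlafen genes tested, SLFN5 rose and SLFN11, SLFN12 and SLFN13 fell. The SLFN5 RNA measured 168, 126 and 119 CPM in the parent and 201, 194 and 198 CPM in the knockout (0.52 ± 0.10 (SE, edgeR adjusted p = 0.00167)). SLFN12 measured 7.29, 6.67 and 6.18 CPM against 3.46, 3.75 and 3.55 CPM (-0.91 ± 0.12 (SE, edgeR adjusted p = 4.91e-05)), and SLFN13 measured 10.0, 13.9 and 13.2 CPM against 8.98, 7.95 and 8.1 CPM (-0.56 ± 0.11 (SE, edgeR adjusted p = 0.00237)). All 4 directions were the same in the camptothecin-treated libraries, with log2 differences of 0.78 for SLFN5, -0.42 for SLFN11, -0.87 for SLFN12 and -0.62 for SLFN13. Over all genes tested 8.26% were higher and 7.49% lower. Within 1 Mb of SLFN11, 42 genes were tested, of which 2 were higher and 7 lower. Besides the schlafen genes these were RDM1 (higher) and the DNA ligase gene LIG3, RASL10B and the unnamed transcripts RP11-686D22.4 and RP11-686D22.8 (lower), both lying between SLFN11 and SLFN12. LIG3 was not called without any 1 of the knockout libraries, RASL10B not without knockout control replicate 1 or 3, and RP11-686D22.4 not without knockout control replicate 1. RP11-686D22.8 was not called without parent control replicate 1, nor without knockout control replicate 2 or 3, and RDM1 was not called without parent control replicate 2 or knockout control replicate 1 or 2.

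Genes of cortical thymocytes and V(D)J recombination were higher in the knockout. Of 14 tested, 12 rose (85.7%, against 8.26% of all genes) and none fell. The median log2 difference was 0.62 against -0.01 for all genes tested. CD1D, which presents lipids to NKT cells, measured 27.9, 23.3 and 22.8 CPM in the parent libraries and 68.2, 66.7 and 68.9 CPM in the knockout libraries (1.46 ± 0.08 (SE, edgeR adjusted p = 7.82e-10)). CD1A measured 49.8, 42.6 and 39.7 CPM and 104, 105 and 105 CPM (1.25 ± 0.07 (SE, edgeR adjusted p = 3.64e-09)). CD1B, CD1C and CD1E rose by 0.88, 0.78 and 0.54, so all 5 CD1 genes were higher. PTCRA, which encodes the pre-T cell receptor alpha chain, went from 1.03, 1.85 and 2.28 CPM to 4.62, 4.52 and 3.81 CPM. The recombinase genes RAG1 and RAG2 rose by 0.62 and 0.50. DNTT, the terminal transferase, measured 72.4, 42.9 and 49.4 CPM in the parent, with replicate 1 above the others, and 81.5, 88.3 and 84.1 CPM in the knockout (0.62 ± 0.14 (SE, edgeR adjusted p = 0.0103)). CD38 also rose, whereas ZAP70 and ARPP21 did not pass the test, with differences of 0.10 and -0.15. The count stayed at 12 without parent control replicate 1 and with scaling by library size alone. In the camptothecin-treated libraries 13 of the 14 were higher in the knockout, with a median of 0.87.

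Genes of the T cell receptor complex and its signalling moved in both directions. Of 38 tested, 9 rose (23.7%, against 8.26% of all genes) and 6 fell (15.8%, against 7.49%), with a median of 0.01. The shares among genes of at least 10 CPM were 8.92% and 11.3%. The constant region of the receptor's alpha chain, TRAC, measured 20.6, 15.3 and 15.3 CPM in the parent and 34.3, 34.6 and 34.8 CPM in the knockout (1.01 ± 0.10 (SE, edgeR adjusted p = 1.9e-06)). TRBC2, a constant region of the beta chain, went the other way, from 777, 733 and 748 CPM to 483, 489.8 and 487 CPM (-0.63 ± 0.06 (SE, edgeR adjusted p = 1.34e-06)). TRBC2 has a near-identical copy, TRBC1, and its value is uncertain for that reason. CD4, the co-receptor for MHC class II, rose by 0.54 and THEMIS, a regulator of thymocyte selection, by 0.54, while the costimulatory receptor ICOS fell by 0.71 on the log2 scale. The CD3 genes CD3D, CD3E and CD3G did not pass the test, with differences of 0.01, -0.30 and 0.11.

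Transcription factors of T cell leukemia and lymphoid progenitors were lower more often than higher in the untreated knockout. Among 33 tested, 4 rose (12.1%, against 8.26% of all genes) and 11 fell (33.3%, against 7.49%), with a median of -0.13. The shares among genes of at least 10 CPM were 8.92% and 11.3%. Beside MEF2C, IKZF3, which encodes the Ikaros family factor Aiolos, fell from 0.551, 0.236 and 0.443 CPM to 0, 0.0405 and 0.086 CPM (-3.27 ± 0.64 (SE, edgeR adjusted p = 0.00152)). GATA2, a factor of blood progenitors, measured 1.4, 1.49 and 1.71 CPM in the parent and 0.68, 0.608 and 0.688 CPM in the knockout. ID3, an inhibitor of E proteins, measured 33.2, 34.5 and 32.6 CPM and 15.4, 14.6 and 16.7 CPM (-1.10 ± 0.08 (SE, edgeR adjusted p = 2.24e-08)), and ID1 and RUNX3 fell by 1.06 and 1.09. The leukemia factors LYL1, LMO2 and HHEX fell by 0.49, 0.40 and 0.55. The 4 rises were TCF7, SOX4, BCL11B and IKZF1, factors of T cell commitment, with differences from 0.22 to 0.49. Without knockout control replicate 2, 2 genes of the list were called higher. IKZF1 was not called without parent control replicate 2 or 3 or any 1 knockout library, nor BCL11B without knockout control replicate 2. TAL1, at -0.01, and GATA3, at -0.13, did not pass the test. In the camptothecin-treated libraries 9 genes of the list were higher and 9 lower in the knockout, with a median of -0.001.

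In the Notch list, 9 of 24 tested genes rose (37.5%, against 8.26% of all genes) and 3 fell (12.5%, against 7.49%), with a median of 0.23. The receptor gene NOTCH3 measured 3.87, 8.06 and 7.35 CPM in the parent libraries, lowest in replicate 1, and 24.9, 25.7 and 27.3 CPM in the knockout libraries (2.05 ± 0.23 (SE, edgeR adjusted p = 9.36e-05)). HES4 and HES6, of the HES family of basic helix-loop-helix factors, measured 3.98, 6.02 and 4.96 CPM and 1.21, 1.49 and 1.75 CPM in the parent and 19.24, 19.97 and 20.79 CPM and 4.64, 5.6 and 5.2 CPM in the knockout. DTX4, a deltex family gene, rose by 1.73 ± 0.18 (SE, edgeR adjusted p = 3.07e-06). Of the classical targets of NOTCH1, HES1 rose by 0.36, NRARP by 1.40 and PTCRA, already named above, by 1.37, while DTX1 fell by 0.68 and NOTCH1 itself, at 0.30, did not pass the test. The coactivator gene MAML3 fell by 1.60 and FBXW7, which targets Notch for degradation, by 0.29. FBXW7 was not called without any 1 of the knockout libraries, nor NRARP without parent control replicate 1 or knockout control replicate 1 or 2.

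**Figure D3:**
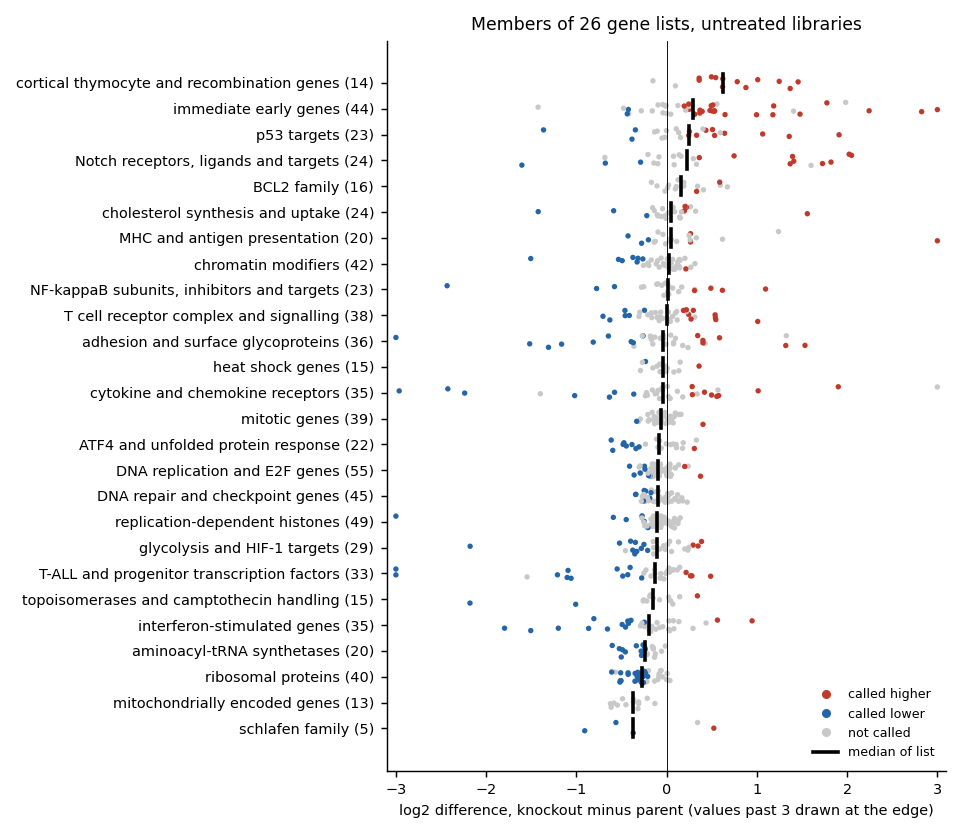
Log2 difference between untreated knockout and parent cells for each tested member of 26 gene lists, with the number tested in parentheses, coloured by call, and the median of each list as a black bar. The cortical thymocyte list has the highest median (0.62), and the ribosomal protein list has a median of -0.27.

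Growth signals and stress induce immediate early genes within minutes, without new protein synthesis. In the untreated knockout 22 of 44 tested were higher (50%, against 8.26% of all genes). Lower calls numbered 2 (4.55%, against 7.49%), and the median was 0.30. The rises were largest for RHOB, named above, and the phosphatase genes DUSP4 and DUSP8. DUSP4, which inactivates MAP kinases, measured 0.333, 0.433 and 0.665 CPM in the parent and 3.1, 3.51 and 2.95 CPM in the knockout (2.83 ± 0.20 (SE, edgeR adjusted p = 2.34e-08)). DUSP8 went from 0.298, 1.02 and 0.642 CPM to 2.94, 2.84 and 2.54 CPM (2.24 ± 0.27 (SE, edgeR adjusted p = 9.01e-05)), and the orphan nuclear receptor gene NR4A3 from 0.385, 0.649 and 0.532 CPM to 1.86, 1.95 and 1.38 CPM (1.78 ± 0.24 (SE, edgeR adjusted p = 4.86e-05)). The AP-1 gene JUN measured 49.9, 45.1 and 43.5 CPM and 60.9, 58.5 and 59.7 CPM (0.37 ± 0.06 (SE, edgeR adjusted p = 0.000463)), and IER2 measured 36, 45.5 and 51.5 CPM and 63.8, 62.5 and 65.2 CPM (0.53 ± 0.10 (SE, edgeR adjusted p = 0.0011)). ATF3 rose by 0.20 ± 0.06 (SE, edgeR adjusted p = 0.0489), a difference that was not called without parent control replicate 2 or 3 or any 1 knockout library. FOS, at 1.5, 1.67 and 1.44 CPM in the parent and 1.84, 1.56 and 2.19 CPM in the knockout, and EGR1, at 1.44, 1.53 and 1.91 CPM and 1.56, 1.87 and 1.83 CPM, overlapped between the groups and did not pass the test (adjusted p = 0.293 and 0.628 in edgeR). The falls were ZFP36L1 and GADD45B, the latter not called without parent control replicate 1 or any 1 knockout library. The number of rises was 22 without parent control replicate 1, 14 or 15 without 1 knockout library and 13 in a fit of the 6 untreated libraries alone.

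Of the p53 targets, 10 of 23 tested rose (43.5%, against 8.26% of all genes) and 3 fell (13.0%, against 7.49%), with a median of 0.24. CCRF-CEM cells are known to carry mutated p53. CDKN1A, the cyclin-dependent kinase inhibitor p21, measured 1.32, 2.2 and 2.55 CPM in the parent and 6.48, 8.15 and 7.24 CPM in the knockout (1.91 ± 0.18 (SE, edgeR adjusted p = 3.36e-06)). TP53I3, an oxidoreductase gene, rose by 1.06 ± 0.13 (SE, edgeR adjusted p = 1.63e-05) and PHLDA3, an inhibitor of AKT, by 1.36 ± 0.32 (SE, edgeR adjusted p = 0.0067). TNFRSF10B, a TRAIL receptor gene, fell by 1.36 on the log2 scale. PHLDA3 was not called without knockout control replicate 2, nor TNFRSF10B without knockout control replicate 2 or 3. Without 1 knockout library 5 or 6 of the rises were called, and 4 in the fit of the 6 untreated libraries. In the BCL2 family 2 of 16 tested genes (12.5%, against 8.26% of all genes) rose, BCL2L2 by 0.59 ± 0.09 (SE, edgeR adjusted p = 0.000162) and PMAIP1 by 0.33 ± 0.09 (SE, edgeR adjusted p = 0.0229), and PMAIP1 was not called without parent control replicate 2 or 3 or any 1 knockout library. The rises numbered 1 without parent control replicate 3 or any 1 knockout library. NF-kappaB genes moved in both directions, with 4 rises (17.4%) and 3 falls (13.0%) among 23 tested, against 8.26% and 7.49% of all genes. NFKB1, the p105 subunit gene, measured 67.8, 54.1 and 54.6 CPM in the parent and 36.1, 34 and 33.1 CPM in the knockout (-0.78 ± 0.08 (SE, edgeR adjusted p = 2.41e-06)). ICAM1, an adhesion molecule, rose by 1.10, BIRC3, an inhibitor of apoptosis, rose by 0.62, and the chemokine gene IL8 fell by 2.43 from a parent level of 0.735, 0.59 and 0.687 CPM.

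Interferon-stimulated genes were lower in the knockout in 12 of 35 tested cases (34.3%, against 7.49% of all genes). They were higher in 2 (5.71%, against 8.26%), and the median was -0.19. OAS2, a sensor of double-stranded RNA, measured 7.94, 8.61 and 7.78 CPM in the parent and 3.22, 2.33 and 3.01 CPM in the knockout (-1.51 ± 0.14 (SE, edgeR adjusted p = 9.13e-07)). Its neighbour OAS1 measured 4.51, 3.46 and 3.59 CPM and 1.98, 1.46 and 1.61 CPM (-1.20 ± 0.19 (SE, edgeR adjusted p = 0.00024)). RSAD2, which encodes the antiviral enzyme viperin, IFIT2 and IFIT5 fell by 0.81, 0.86 and 0.66, and IFI44L by 1.80 at a parent level below 1 CPM. IFI44L was not called without parent control replicate 1 or 3 or any 1 knockout library, nor IFIT2 without parent control replicate 1 or knockout control replicate 2. The antiviral GTPase gene MX1 rose from 8.42, 7.32 and 7.78 CPM to 14.7, 15.7 and 15 CPM (0.95 ± 0.09 (SE, edgeR adjusted p = 6.05e-07)), and IRF7 rose by 0.56. ISG15, at 0.29, and STAT2, at 0.14, did not pass the test. Without parent control replicate 1 the falls also numbered 12, and they numbered 8 in the fit of the 6 untreated libraries. Among genes of MHC and antigen presentation 3 of 20 tested rose and 3 fell, 15% each way against 8.26% and 7.49% of all genes. HLA-B fell by 0.28, and the transporter gene TAP1 rose by 0.27 but was not called without parent control replicate 1, nor when any 1 knockout library was left out. HLA-F went from 0.0438, 0.118 and 0.222 CPM to 1.06, 0.973 and 0.774 CPM. Genes of the HLA family are near-identical in parts, so their counts are uncertain. Without parent control replicate 1 the falls in this list numbered 6, whereas without 1 knockout library 1 or 2 rises and 1 or 2 falls were called. HLA-B was not called without knockout control replicate 2.

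Genes of surface receptors moved in both directions. S1PR1, the sphingosine 1-phosphate receptor that lets T cells leave lymphoid tissue (chr1:101702443-101707073), measured 45.3, 36.4 and 37.2 CPM in the parent libraries and 152, 143 and 149.7 CPM in the knockout libraries (1.90 ± 0.08 (SE, edgeR adjusted p = 2.83e-11)). IL6ST, the shared signalling chain of IL-6 family receptors, fell from 2.85, 3.54 and 2.13 CPM to 0.64, 0.77 and 0.387 CPM (-2.24 ± 0.24 (SE, edgeR adjusted p = 3.57e-06)), and TGFBR3 fell by 2.42 at a parent level below 1 CPM. In all, 8 of 35 tested cytokine and chemokine receptor genes rose (22.9%, against 8.26% of all genes) and 7 fell (20%, against 7.49%). Without 1 knockout library 5 or 6 of the rises were called. Of 36 adhesion and surface glycoprotein genes, 6 rose (16.7%, against 8.26%) and 9 fell (25%, against 7.49%). ITGA1, the integrin alpha 1 chain, measured 13.8, 11.6 and 10.4 CPM in the parent and 34.6, 35.8 and 33.7 CPM in the knockout (1.53 ± 0.09 (SE, edgeR adjusted p = 2.33e-09)), and the tetraspanin CD151 rose by 1.32. CD34, a marker of blood progenitors, fell from 7.26, 5.92 and 6.8 CPM to 2.28, 2.6 and 2.11 CPM (-1.52 ± 0.17 (SE, edgeR adjusted p = 6.98e-06)). THY1 gave 90 exon reads in the parent and 3 in the knockout, a ratio of 20.8 (exact 95% counting interval 6.9 to 103), and was not called without knockout control replicate 1.

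Markers of other lineages moved in a few genes at low levels. BLK, a kinase of B cells, measured 0.989, 1 and 1.97 CPM in the parent and 0 reads in each knockout library, at least 58.5-fold lower with the floor of 3 reads. IGLL1, a surrogate light chain gene, fell from 8.52, 7.69 and 8 CPM to 2.94, 2.88 and 3.2 CPM, and CD79A rose by 0.55. EPCAM, an epithelial adhesion gene, rose from 1.72, 1.32 and 0.975 CPM to 6.9, 6.95 and 7.01 CPM (2.34 ± 0.17 (SE, edgeR adjusted p = 5.34e-08)), which lifted the summed level of the 7 epithelial markers from between 1.95 and 2.63 CPM to between 7.8 and 8.05 CPM. EPOR, the erythropoietin receptor gene, rose by 0.46. In these bulk libraries a change in the share of cells and a change in RNA per cell cannot be told apart, here and in all other results.

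Genes of the cell cycle and of the DNA damage response were called about as often as all genes or less, with a smaller share of higher calls. Of 55 tested genes of DNA replication, 2 rose and 7 fell, of 39 mitotic genes 1 rose and 1 fell, and of 45 genes of DNA repair and checkpoints none rose and 7 fell. These are 16.4%, 5.13% and 15.6% called, against 15.7% of all genes tested. Higher calls were 3.64%, 2.56% and 0% and lower calls 12.7%, 2.56% and 15.6%, against 8.92% and 11.3% among genes of at least 10 CPM. The medians of the 3 lists, -0.09, -0.06 and -0.09, all turned positive, to at most 0.04, with scaling by library size alone. The cyclin gene CCNE1 rose by 0.37 ± 0.09 (SE, edgeR adjusted p = 0.00627), and the ligase gene LIG1 fell by 0.29 on the log2 scale. The repair gene PARP1 measured 291, 233 and 223 CPM in the parent, highest in replicate 1, and 199, 192 and 199 CPM in the knockout (-0.34 ± 0.08 (SE, edgeR adjusted p = 0.00654)). Checkpoint kinase gene CHEK2 fell by 0.34, MGMT by 0.26 and RAD52 by 0.25. MGMT was not called without parent control replicate 2 or 3 or any 1 knockout library, RAD52 not without parent control replicate 3 or knockout control replicate 1, CHEK2 not without knockout control replicate 2 and CCNE1 not without knockout control replicate 3. These counts turned on single libraries: without parent control replicate 1 the rises and falls were 4 and 10 for replication, 7 and 1 for mitosis and 4 and 7 for repair, and without 1 knockout library the falls were 1 to 2 for replication and 2 to 3 for repair, while without parent control replicate 2 they were 12 for each.

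Among topoisomerases and genes that handle camptothecin, 1 of 15 rose and 2 fell, with 4 falls without parent control replicate 2 or 3. The main counts, 6.67% higher and 13.3% lower, were near the 8.92% and 11.3% among genes of at least 10 CPM. Both falls lay below that level, and over all genes tested the shares were 8.26% and 7.49%. The falls were drug efflux pumps: ABCB1, with 0.551, 0.393 and 0.354 CPM in the parent and 0.08, 0.122 and 0.086 CPM in the knockout (-2.18 ± 0.46 (SE, edgeR adjusted p = 0.00306)), and ABCG2, a known exporter of camptothecins, with 1.67, 1.18 and 1.55 CPM and 0.76, 0.791 and 0.645 CPM (-1.01 ± 0.24 (SE, edgeR adjusted p = 0.00874)). With reads counted over the whole gene ABCG2 was not called. The pump gene ABCC1 rose by 0.34 and was not called without parent control replicate 1 or any 1 knockout library. TOP1, the target of camptothecin, was among the 12 genes of the list that did not pass the test, with a difference of -0.08. Of 42 chromatin modifiers 1 rose (2.38%) and 7 fell (16.7%, against 11.3% of genes of at least 10 CPM). The falls were led by HDAC9 (-1.51), the remodeler genes CHD1 (-0.53) and SMARCA2 (-0.49) and the DNA demethylation gene TET2 (-0.37), all as log2 differences. There were 10 rises in this list without parent control replicate 1 and none without any other library. Of 49 replication-dependent histone genes none rose and 6 (12.2%) fell, near the 11.3% lower among all genes of at least 10 CPM. Beside HIST1H1A these included HIST1H2BM, with 294, 193 and 196 CPM in the parent and 148, 155 and 151 CPM in the knockout, where parent replicate 1 was highest. Without 1 knockout library 2 or 3 histone falls were called, and without parent control replicate 1 there were 3 rises and 9 falls. Histone genes are near-identical to one another, so single values are uncertain.

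Genes of protein synthesis were called lower and none higher. Of 20 aminoacyl-tRNA synthetase genes none rose and 11 fell, with a median of -0.24, and of 40 ribosomal protein genes none rose and 24 fell, with a median of -0.27, against 11.3% lower calls among genes of at least 10 CPM. RPS6 measured 1067, 758 and 771 CPM in the parent and 624, 600.1 and 596 CPM in the knockout (-0.51 ± 0.10 (SE, edgeR adjusted p = 0.00187)), and RPS2 measured 1588, 1309 and 1298 CPM and 965, 980.5 and 985 CPM (-0.52 ± 0.08 (SE, edgeR adjusted p = 0.000115)). The synthetase gene CARS measured 63.1, 60.9 and 60.3 CPM and 42.8, 45.3 and 42.1 CPM (-0.50 ± 0.06 (SE, edgeR adjusted p = 1.39e-05)), and YARS fell by 0.49. In RPS6, RPS2 and YARS parent replicate 1 was the highest library. Without that library 33 ribosomal protein and 12 synthetase genes fell, with medians of -0.18 and -0.16. Without 1 knockout library the falls were 7 or 8 ribosomal protein and 6 or 7 synthetase genes, and 6 and 2 in the fit of the 6 untreated libraries. Ribosomal protein genes have many processed pseudogenes, so their counts are uncertain. The 13 mitochondrially encoded genes had a median of -0.37 and none was called, with MT-CO1 at 2486, 1645 and 1693 CPM in the parent and 1476, 1520.5 and 1514 CPM in the knockout. Without parent control replicate 1 their median was -0.14, and without parent control replicates 2 and 3 there were 6 and 3 falls.

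The list of ATF4 targets and the unfolded protein response held 1 rise (4.55%) and 8 falls (36.4%) among 22 tested, against 8.26% and 7.49% of all genes. Its rises and falls numbered 4 and 10 without parent control replicate 1, with no rise and 6 or 7 falls without 1 knockout library. The stress factor gene ATF4 itself measured 493, 365 and 371 CPM in the parent and 268, 269 and 266 CPM in the knockout (-0.61 ± 0.09 (SE, edgeR adjusted p = 0.000159)). The serine synthesis genes PSAT1 and PHGDH measured 111, 117 and 118 CPM and 221, 214 and 219 CPM in the parent and 82.8, 81.8 and 83.5 CPM and 158, 152 and 161 CPM in the knockout. CHAC1, which degrades glutathione, fell by 0.60 on the log2 scale and was not called without knockout control replicate 2. Of 29 genes of glycolysis and of the hypoxia factor HIF-1, 3 rose (10.3%) and 10 fell (34.5%), against 8.26% and 7.49% of all genes. The aldolase gene ALDOC measured 6.61, 7.39 and 6.69 CPM and 1.4, 1.16 and 2.02 CPM (-2.18 ± 0.19 (SE, edgeR adjusted p = 3.4e-07)), the growth factor gene VEGFA fell by 0.52, and NDRG1 rose by 0.39. Without 1 knockout library 5 or 6 of these falls were called. In cholesterol synthesis and uptake 4 of 24 genes rose (16.7%) and 3 fell (12.5%), against 8.26% and 7.49% of all genes. The cholesterol exporter gene ABCA1 had a difference of 1.56 and ABCG1 of -0.59. The rises numbered 1 without parent control replicate 3 or knockout control replicate 2 or 3, and the falls 1 without knockout control replicate 1 or 3. Of 15 heat shock genes 1 rose and 1 fell, 6.67% each way against 8.26% and 7.49% of all genes. This list had 6 rises without parent control replicate 1, none without any other library and no fall without 1 knockout library.

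Intron reads come largely from unspliced RNA. They were tested for 19318 genes, of which 2840 (14.7%) were called, 1584 higher and 1256 lower. Of the 3179 genes called in exon reads that had an intron test, 2948 (92.7%) had the same sign in introns, 1542 (48.5%) were called there with the same sign and 7 were called with the opposite sign. Exon and intron reads come from the same libraries, so they are not independent readings. Over all 16846 genes with both, called or not, the exon and intron differences had a Pearson correlation of 0.77. The same-sign share over those genes is not given, so the 92.7% has no background. LRRC6, DOCK5 and LRP6 had intron differences of 4.50, 3.51 and -3.96, beside exon differences of 5.07, 3.64 and -3.99. ZNF626 had an intron difference of -4.50 and B3GAT1 of 2.59, while PNMAL1 and RHOB had no intron test. CDC42BPA was lower by less in introns, at -3.92 beside -6.42 in exons. KCNJ2 gave 0 intron reads in each parent library and 11, 5 and 10 in the knockout libraries, too few for a size.

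A test of the exon difference minus the intron difference, with the library as a block, covered 16846 genes and called 123 (0.73%), 62 positive and 61 negative. SLFN11 was among the negative ones: its intron reads were higher in the knockout by 0.58 ± 0.07 (SE, edgeR adjusted p = 9.46e-07) while its exon reads were lower, and exon minus intron was -0.95 ± 0.07 (SE, edgeR adjusted p = 4.07e-06). GGA2, a clathrin adaptor of the trans-Golgi, had exon levels of 10.5, 10.0 and 10.2 CPM in the parent and 1.94, 1.6 and 1.7 CPM in the knockout with an intron difference of -0.28 ± 0.10 (SE, edgeR adjusted p = 0.071), and exon minus intron was -2.27 ± 0.14 (SE, edgeR adjusted p = 4.69e-07). IL6ST, SORBS3, RBFOX2, a splicing factor gene, and CDC42BPA followed with values of -1.60, -1.60, -1.86 and -2.48. In the positive direction, ITGA1 rose by 1.53 in exons and by 0.29 in introns, and exon minus intron was 1.25 ± 0.08 (SE, edgeR adjusted p = 4.69e-07). FAM212B, RP11-162P23.2, RP11-134G8.7 and SAMD11 had values of 1.36, 1.67, 1.13 and 2.13. For SAMD11 the exon difference of -0.30 was not called, and its value comes from lower intron reads. CDC42BPA was not called in this test without knockout control replicate 1 or 2, IL6ST not without 1 or 3, SAMD11 not without 1 or 2, and RP11-134G8.7 not without parent control replicate 1 or any 1 knockout library. The number of calls depended on single libraries: without parent control replicate 1 there were 145 positive and 92 negative, and without knockout control replicate 1, 2 or 3 there were 21, 22 and 22 positive and 23, 31 and 30 negative. Whether counting used strand is not given in the sources used here, and intron reads may include RNA of genes that overlap the intron.

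**Figure D4:**
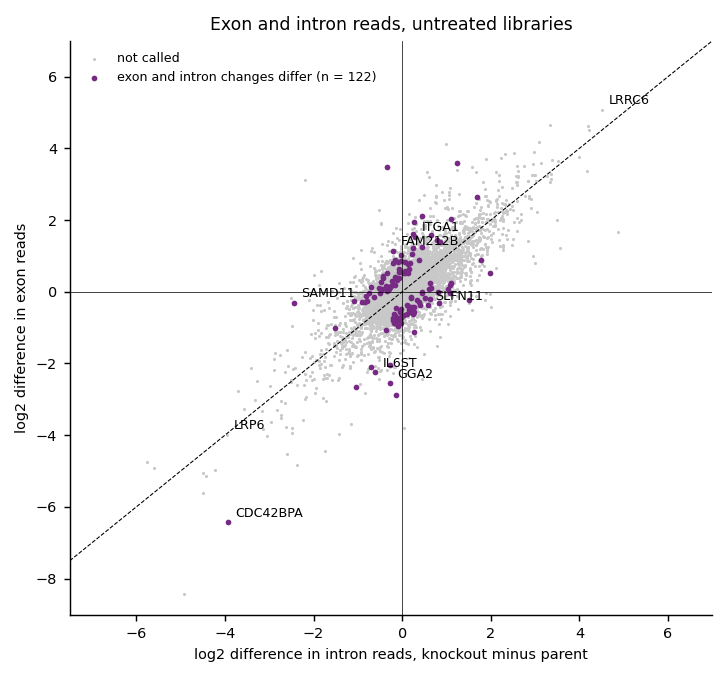
Log2 difference in exon reads (vertical) against that in intron reads (horizontal) between untreated knockout and parent cells, 1 point per gene with exon and intron reads in both groups, with the dashed line at equal differences; purple points are called in the test of exon minus intron. SLFN11 lies below the line, with -0.37 in exons and 0.58 in introns, and ITGA1 lies above it.

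The 6 camptothecin-treated libraries gave a second reading of the genotype difference that shares no library with the first, although both come from the same model fit. In them 6406 genes (28.1%) were called, 3058 higher and 3348 lower. Of the 3593 genes called in untreated cells, 3227 (89.8%) had the same sign under camptothecin. The same-sign share over all genes is not given, so this share has no background. Of the 3593, 2252 (62.7%, and 35.2% of the treated calls) were called with the same sign and 76 were called with the opposite sign. Of the 940 untreated calls of at least 2-fold, 702 (74.7%) were called with the same sign. PNMAL1, at 0 reads in each untreated knockout library, was called lower in treated cells too, and KCNJ2, LRRC6, DOCK5 and S1PR1 had treated differences of 5.92, 4.99, 3.67 and 2.0 beside 6.03, 5.07, 3.64 and 1.90 in untreated cells. Immediate early genes were an opposite case, and some other lists changed too. Of the 44, 2 were higher and 36 lower in the treated knockout, with a median of -1.37 against 0.30 without the drug. The JUN difference was 0.37 without and -3.30 with camptothecin, DUSP8 changed from 2.24 to -3.46, and FOS, not called without the drug, had -3.43 with it. CDKN1A was 1.91 without and -0.51 with camptothecin. Of 23 p53 targets 6 were higher and 12 lower in the treated knockout, with a median of -0.21 against 0.24 without the drug. Among 23 NF-kappaB genes 1 was higher and 20 lower, with medians of -0.84 and 0.01 in turn. All 49 replication-dependent histone genes were lower, with medians of -1.58 and -0.10. Of 15 heat shock genes 10 were higher and 1 lower. ICOS, at -0.71 in untreated cells, had 0.09 (adjusted p = 0.606) in treated cells.

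**Figure D5:**
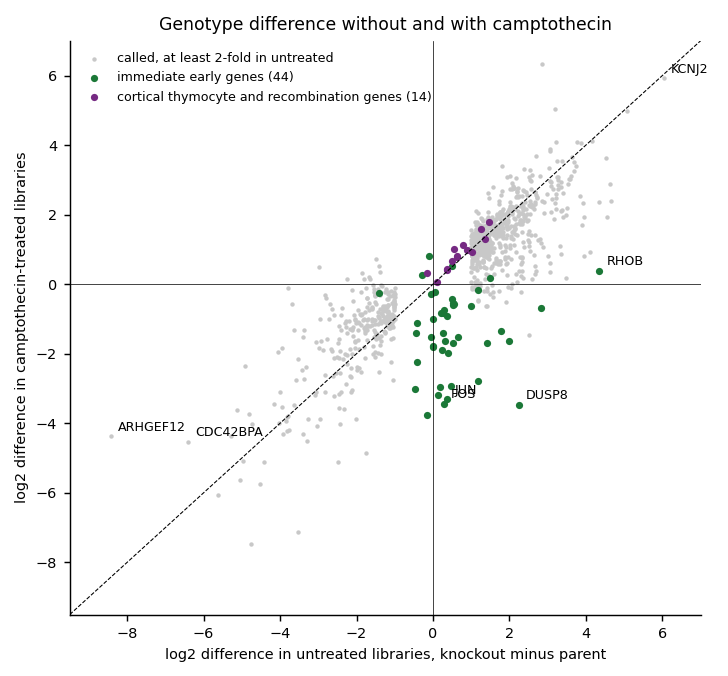
Log2 difference between knockout and parent in camptothecin-treated libraries (vertical) against that in untreated libraries (horizontal), with the dashed line at equal differences; grey points are genes called at 2-fold or more in untreated cells, green points the 44 immediate early genes and purple points the 14 cortical thymocyte and recombination genes. Of the grey points 702 of 940 are called with the same sign in both readings and 13 of the 14 purple points are called higher in treated cells, while RHOB, JUN, FOS and DUSP8 lie far below it.

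Calls were spread over all autosomes. Per chromosome, 6.69% (chromosome 4) to 11.1% (chromosome 21) of tested genes were higher and 4.04% (chromosome 16) to 10.0% (chromosome 4) lower. Of the 10 Mb bins with at least 20 tested genes, the lowest nuclear medians were -0.24 at 20 to 30 Mb of chromosome 19, where 1 of 102 genes rose and 18 fell, and -0.23 at 70 to 80 Mb of chromosome 1, where 1 of 48 rose and 10 fell. Named by size, the falls in the chromosome 19 bin were ZNF626, its relative ZNF826P, with 1.16, 0.865 and 0.687 CPM in the parent and 0.1, 0.0811 and 0.172 CPM in the knockout, and CTC-513N18.7. Those in the chromosome 1 bin were ST6GALNAC3, a sialyltransferase gene that fell by 2.09, IFI44L, whose call rests on single libraries as given above, and NEXN, which was not called without knockout control replicate 2 or 3. The highest medians were 0.16 at chromosome 20 from 60 Mb, where 16 of 83 genes rose and 1 fell, 0.16 at chromosome 11 from 130 Mb (4 of 22 rose) and 0.15 at 120 to 130 Mb of chromosome 5 (5 of 30 rose). BHLHE23, a basic helix-loop-helix factor gene on chromosome 20, measured 2.63, 4.84 and 3.88 CPM in the parent and 18.8, 17.7 and 19.2 CPM in the knockout (2.33 ± 0.17 (SE, edgeR adjusted p = 2.57e-07)). On chromosome 11 B3GAT1 was followed by IGSF9B, at 1.08, and on chromosome 5 ZNF608 rose by 1.19. The mitochondrial genome had the lowest median of all bins, -0.31, with 1 of 37 genes called. The falls in the chromosome 19 bin numbered 9 to 11 without 1 knockout library, and the rises in the chromosome 20 bin 10 and 9 without knockout control replicates 1 and 3.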

How the data were processed

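RNA of 12 CCRF-CEM libraries was sequenced on a HiSeq4000 instrument as paired ends, per the labels' protocols. The deposited tables hold, per the file headers, the authors' whole-number counts of reads over each gene, its exons and its introns, and counts unique to the gene. The genome build was hg19, and the tools were STAR 2.5.4a, Picard 2.9.2, Trimmomatic 0.39 and Trim Galore 0.6.2, per the submitters' processing notes, which give no role to each. The table names mark duplicates as removed, which compresses abundant RNAs. Not given in the sources used here are the counting tool, the annotation and the strandedness. Counts above 6 digits carry 6 significant digits.

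Genes absent from a library's table were set to 0 reads. Of 43863 gene places, 1739 on chromosomes X and Y were left out. Exon counts were fitted with edgeR 4.0.16 in R 4.3.3 (filterByExpr, TMM, robust quasi-likelihood, a mean per group over all 12 libraries), with p-values adjusted over all genes tested (Benjamini-Hochberg) and calls at 0.05. The biological coefficient of variation was 11.6% for exon and 10.4% for intron reads. Levels are CPM on the TMM-scaled exon total, as mean ± SD over 3 libraries where not given per library. The SE is the unshrunk log2 difference divided by the root of the F statistic, so it restates the test. Floors of 3 reads and 95% intervals cover counting error only. Exon and intron counts were tested together with a block per library, and the untreated minus treated difference with an interaction contrast. The scripts were tested on simulated counts. DESeq2 1.42.0 was an alternative.

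Genes were named by rule: the 15 largest rises and 15 largest falls among calls of at least 1 CPM without overlap, up to 4 called members per list (2 members by level where none was called), SLFN5, SLFN11, SLFN12, SLFN13, FOS, JUN, EGR1, ATF3 and IER2, up to 6 called neighbours of SLFN11, up to 3 genes in each of the 3 highest and 3 lowest bins, and 5 genes per direction of exon minus intron with at least 20 intron reads. Further list members named in the text were chosen after their values were seen. The members and lists were chosen with earlier results of these data known. A few genes that the rule names are not reported here. The main fit did not pair libraries by replicate number, since the counts showed no such pairing.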

Additional observations from a re-analysis of the deposited data

Results flagged for a closer look

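The difference between knockout and parent was itself compared between untreated and camptothecin-treated libraries for the 30 largest changes and for SLFN11, FOS, JUN, EGR1, ATF3 and IER2, by the interaction contrast of the edgeR fit. The 30 were chosen by the size of their untreated difference, which enters this contrast. That choice favours differences that are larger without the drug than with it. The share of such calls over all genes is not given, so the count below has no background. Of these 36 genes, 13 had a genotype difference that differed between the drug conditions at an adjusted p below 0.05, given here as untreated minus treated log2 difference. In the immediate early genes it was 3.71 ± 0.23 for FOS (SE, edgeR adjusted p = 1.1e-08), 3.67 for JUN, 3.33 for EGR1, 3.15 for ATF3 and 2.23 for IER2, and RHOB had 3.95 ± 0.31 (adjusted p = 2.79e-07), so the knockout stood relatively higher before the drug than under it. Of the other large rises, SHISA9 had 1.73 ± 0.37 (adjusted p = 0.00848) and GFOD1 0.494 ± 0.12 (adjusted p = 0.0245), both higher in the knockout in both conditions. Of the large falls, which were lower in the knockout in both conditions, ARHGEF12 had -4.06, CDC42BPA -1.88, FLJ27365 -1.39, GRB10 -0.948 and LRP6 -0.895. ARHGEF12 gave only 2 reads in the untreated knockout libraries, so the size of its value rests on the prior count of the fit.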

How the results depend on the processing

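The 30 largest changes kept their direction and call under every alternative that tested them (exon reads unique to the gene left out ZNF626 and CKMT1A). Higher and lower exon calls (1884 and 1709) were within 1.5 times the main counts under DESeq2, no filter, total gene reads, unique exon reads, the X chromosome kept and abundant small RNA genes left out, the last chosen after seeing the data. Lower calls were 1032 with library size alone and 765 with the 6 untreated libraries alone. Calls numbered 451 higher and 208 lower against a 1.5-fold threshold (glmTreat), and 632 and 308 at 2-fold or more in the same fit, a count added after seeing the data. With 1 library left out, higher exon calls ranged from 1334 to 2244 and lower ones from 963 to 2210, higher intron calls from 1179 to 1620 and lower ones from 753 to 1377, and exon minus intron calls from 21 to 145 positive and 23 to 92 negative. With library size alone, intron calls were 2083 higher and 751 lower and treated calls 4884 higher and 2109 lower. With total gene reads, 3 genes named by the rule changed sign, CSF1R to -0.16, FAM212B to -0.0204 and RP11-134G8.7 to -0.00165 on the log2 scale, none of them called. Same-numbered libraries had correlations of 0.068, -0.028 and -0.012, so the counts showed no pairing by number. This does not exclude that same-numbered libraries were grown or prepared together. With a replicate block the exon calls were 1808 higher and 1616 lower, the intron calls 1659 and 1254 and the treated calls 2970 and 3311. Of the 154 called genes named by the rule, 119 stayed called with the 6 untreated libraries alone and 124 to 127 without 1 knockout library. Depth leaves genes below 1 CPM with few reads, and 3 libraries per group limit small differences. The causes of these shifts were not tested.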

Other observations

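ZNF genes, most of which encode zinc finger proteins of the KRAB family, were called mostly in the lower direction on chromosome 19; whether this differs from ZNF genes elsewhere was not tested. This list was taken by name after values were seen, so it has no test. Of 245 tested ZNF genes on chromosome 19, 3 were called higher and 65 lower, with a median log2 difference of -0.17, against 7.49% lower calls over all genes tested. Of 238 ZNF genes on other autosomes, 23 were higher and 22 lower, with a median of -0.06. Outside the bin at 20 to 30 Mb, chromosome 19 held 215 of them, of which 3 were higher and 52 lower. The lower calls on chromosome 19 numbered 60 without parent control replicate 1, 36 to 42 without 1 knockout library, 42 with library size alone and 25 in the fit of the 6 untreated libraries. Members of this family share long stretches of sequence, so single values are uncertain.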
